A study of Danio rerio with 12 samples.

Results

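The aryl hydrocarbon receptor pathway was followed as 10 named genes, of which 9 were found by name among the 32057 genes of the count tables: the receptors ahr1a, ahr1b and ahr2, the repressors ahrra and ahrrb, tiparp, and the cytochrome P450 genes cyp1a, cyp1b1 and cyp1c2. The other named gene, cyp1c1, was not analysed here. All 9 passed the filter on low counts that left 23075 genes for testing. The set was proposed because ahrra (ENSDARG00000099702) led the exposure comparison of larvae sampled 7 days post fertilization (dpf). Values of that comparison are therefore given as a description without a test, and ahrra itself is tested at 10 dpf only. The remaining genes were added as partners in the same pathway.

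The aryl hydrocarbon receptor is a transcription factor that waits in the cytoplasm in a complex with chaperones until a ligand, such as a dioxin, a polycyclic aromatic hydrocarbon or a product of tryptophan, binds it. It then pairs with an ARNT protein in the nucleus and switches on genes of the CYP1 family, whose enzymes oxidize such ligands, together with its own inhibitors AHRR and TIPARP. Zebrafish carry several receptor genes, and ahr2 is the one that is known to mediate most of the toxicity of dioxins in their embryos.

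Messenger RNA of entire AB strain larvae was sequenced in 4 groups of 3 biological replicates: larvae exposed to tritiated water (HTO, water that carries the radioactive hydrogen isotope tritium) at 0.4 mGy/h and sampled at 7 dpf, their controls at 7 dpf, larvae exposed in the same way and sampled at 10 dpf, and their controls at 10 dpf. Exposed larvae were kept in an incubator within a glove box and controls in a second one outside it, and effects of the exposure and of the incubator cannot be told apart. Levels are given as CPM, the count of a gene scaled to a fixed total of reads on genes, which compare libraries for 1 gene but not genes with each other, since they are not divided by transcript length. In libraries of entire larvae, fewer cells of a type and less RNA per cell cannot be told apart.

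Each library held 19379018 to 67338921 reads on genes. The depth behind the members differed widely: ahr2 had 2872 to 11766 reads per library and cyp1a 1943 to 9325, while ahrra had 25 to 336, ahrrb 13 to 49 and cyp1b1 4 to 14. Markers of liver, intestine, endothelium, heart, epidermis, cartilage and neurons all had reads in every library. Exposed replicate 1 at 10 dpf stood apart, with the lowest mean correlation with its replicates (Pearson's r = 0.975 over log2 CPM of all genes tested, against 0.982 to 0.992 in the other 11 libraries) and with the lowest summed liver, intestine, heart and macrophage markers of the exposed libraries of that age. Where a result at 10 dpf rests on it, the value without it is given too.

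**Figure D1:**
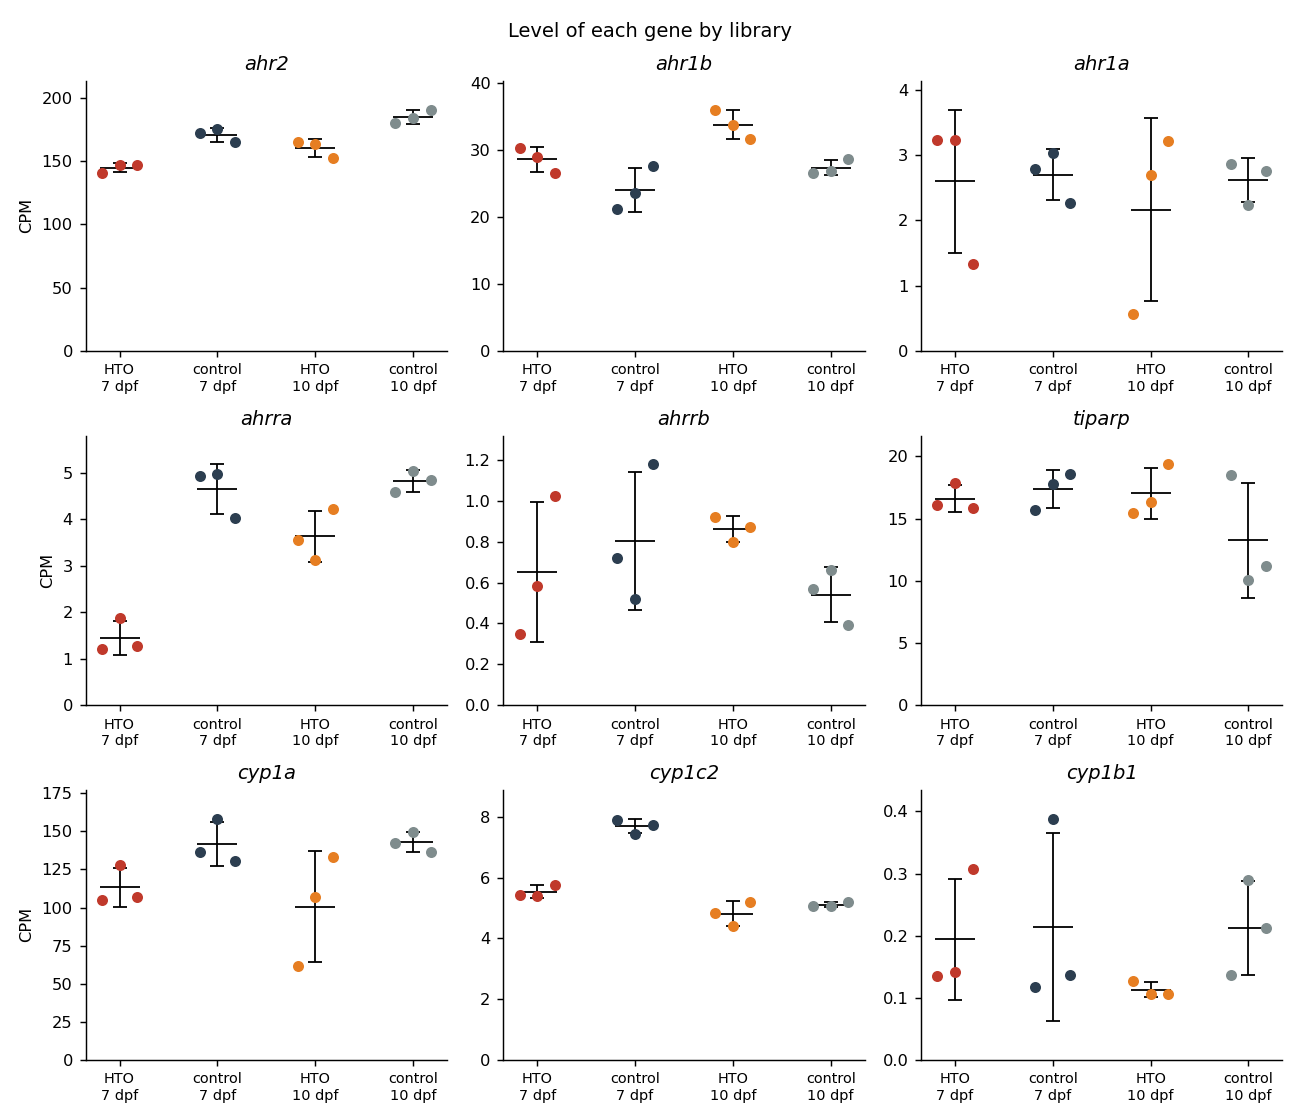
CPM of each of the 9 genes in the 12 libraries (vertical axes, each from 0), with exposed (HTO) and control larvae at 7 and 10 dpf on the horizontal axes; dots are libraries in the order of replicate number, and bars are the mean with the SD of 3 libraries. In the panel of ahrra the 3 exposed libraries at 7 dpf lie between 1.21 and 1.87 CPM and all other libraries at 3.13 CPM or above.

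Among the repressors at 7 dpf, ahrra was lower in exposed larvae. The gene encodes a repressor that competes with the receptor for ARNT. Exposed larvae gave 63, 106 and 25 reads for it, and controls 336, 154 and 147. That is 1.21, 1.87 and 1.28 CPM in exposed larvae and 4.92, 4.98 and 4.02 CPM in controls at 7 dpf. The highest exposed library lay below the lowest control. The log2 fold change was -1.65 with a standard error (SE) of 0.18, a level of 0.319 times that of controls. This is the value by which the set was proposed, so it supports nothing further. The 14 macrophage markers, summed, were lower in the same exposed libraries, at 61.9 to 74.9 CPM against 75.3 to 117.5 CPM in controls. This was not particular to them: the 4 endothelium markers, summed, were at 101.1 to 106.9 CPM against 107.6 to 119.3 CPM. Summed epidermis markers lay the other way with overlap, at 4993 to 6402 CPM against 3210 to 5305 CPM. The part of these cell types in the level of ahrra was not tested. Without exposed replicate 2, the highest of the 3 in ahrra, the log2 fold change of ahrra was -1.90, and without exposed replicate 1 it was -1.49.

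The second repressor gene, ahrrb, had 0.346, 0.582 and 1.02 CPM in exposed libraries and 0.718, 0.517 and 1.18 CPM in controls at 7 dpf. Its groups overlapped across most of their range (log2 fold change -0.45, SE 0.37, 95% interval -1.25 to 0.36). With 16 to 49 reads per library at this age the interval covers levels below and above that of controls. The inhibitor tiparp, an ADP-ribosyltransferase that modifies the receptor, averaged 16.6 ± 1.1 CPM in exposed larvae and 17.4 ± 1.5 CPM in controls (SD, n = 3 each), with groups that overlapped.

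Among the receptors at 7 dpf, ahr2 was lower in exposed larvae and ahr1b stood higher. The 3 exposed libraries had 140.6, 147 and 147 CPM of ahr2, against 172, 176 and 165 CPM in controls, without overlap (log2 fold change -0.24, SE 0.06). For ahr1b they had 30.2, 28.9 and 26.5 CPM, against 21.1, 23.5 and 27.6 CPM in controls. Here control replicate 3 lay above exposed replicate 3, so the groups overlapped (0.25, SE 0.10). The third receptor gene, ahr1a, was at 3.23, 3.23 and 1.33 CPM in exposed larvae and at 2.78, 3.04 and 2.27 CPM in controls, a spread within exposed larvae that covered all controls.

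The CYP1 genes, whose enzymes oxidize receptor ligands, lay lower in exposed larvae at 7 dpf in both genes with more than a few reads. The level of cyp1a, which is widely used as a readout of receptor activity in fish, was 105, 128 and 107 CPM in exposed libraries and 137, 158 and 130.3 CPM in controls. The groups did not overlap (log2 fold change -0.32, SE 0.22). The level of cyp1c2 was 5.44, 5.40 and 5.78 CPM in exposed libraries against 7.91, 7.44 and 7.75 CPM in controls. Both groups were tight and far apart relative to their spread (-0.48, SE 0.10). With 5 to 12 reads per library, cyp1b1 could not be resolved at this age (-0.19, SE 0.54), and its sign turned without control replicate 2 (0.43) or exposed replicate 1 (0.01).

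Taking all 9 genes at 7 dpf, the log2 fold changes had a median of -0.24, with 2 values above 0 and 7 below, where all 23075 genes had a median of -0.01 and quartiles of -0.14 and 0.11. In 4 of the 9 genes, ahrra, ahr2, cyp1a and cyp1c2, exposed and control libraries did not overlap, each time with the exposed ones lower. Over all genes 16.7% had groups without overlap. By edgeR's quasi-likelihood test with Benjamini-Hochberg adjustment, 0.516% of all genes passed a threshold of 0.05 at 7 dpf. That 1 of the 9, ahrra, was among them followed from the choice of the set and is no test of it. Both counts belong to the comparison that chose the set and are given only as a description.

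**Figure D2:**
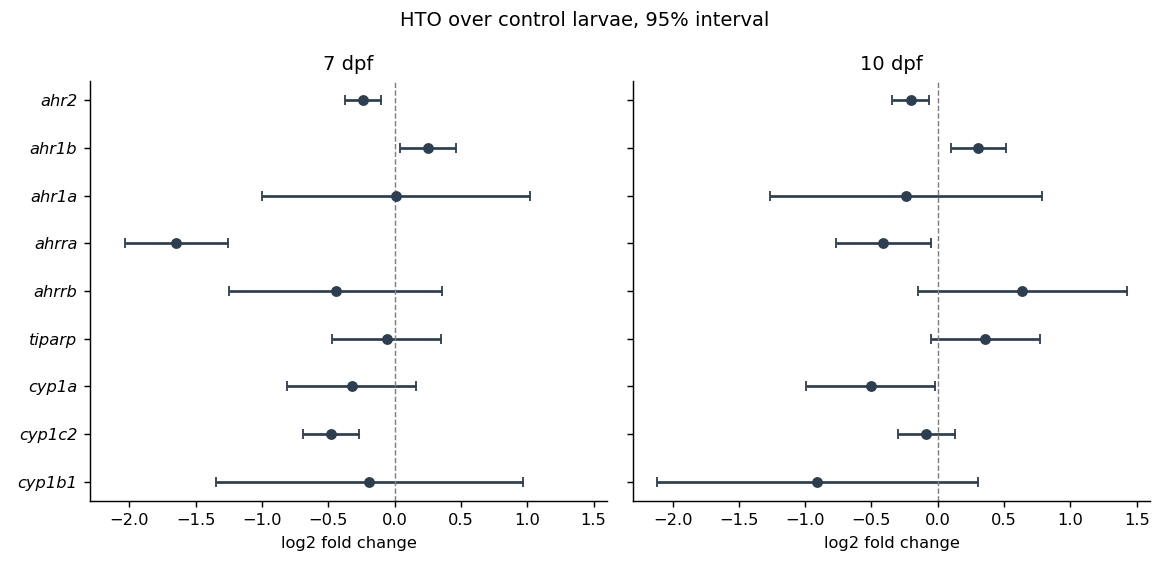
Log2 fold change of exposed over control larvae (horizontal axis) for each of the 9 genes (vertical axis) at 7 dpf on the left and at 10 dpf on the right, with 95% intervals from the fit of all 12 libraries. The interval of ahrra runs from -2.04 to -1.26 at 7 dpf and from -0.77 to -0.05 at 10 dpf, and ahr1b and ahr2 lie on opposite sides of 0 at both ages. Intervals at 7 dpf are a description and no test, since the set was proposed from that comparison.

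Larvae of 10 dpf were separate libraries, so the same question could be tested there. The members were, however, chosen with earlier results of these data known, so these tests were not planned blind. The receptor ahr2 had 165, 164 and 152 CPM in exposed libraries against 180.2, 184 and 191 CPM in controls. All 3 exposed libraries lay below all controls, a difference of 13.2% that missed the threshold (log2 fold change -0.20, SE 0.06, edgeR adjusted p = 0.0550). The paralog ahr1b had 35.9, 33.7 and 31.6 CPM in exposed libraries and 26.6, 26.8 and 28.7 CPM in controls. Here the exposed libraries lay above the controls by 23.5%, with the same outcome (0.31, SE 0.10, edgeR adjusted p = 0.0575). Under DESeq2 both genes passed (adjusted p = 0.0249 for ahr2 and 0.0391 for ahr1b). Without exposed replicate 1 the edgeR adjusted p was 0.0996 for ahr2 and 0.162 for ahr1b.

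Since ahr1b and ahr2 differed in opposite directions, their ratio within a library, which needs no scaling between libraries, was computed after their values had been seen. Per 100 reads on ahr2 there were 21.7, 20.6 and 20.7 reads on ahr1b in exposed libraries at 10 dpf, against 14.7, 14.5 and 15.04 in controls. At 7 dpf there were 21.5, 19.6 and 18.1 in exposed libraries, against 12.2, 13.4 and 16.7 in controls. The 6 exposed libraries thus held 18.1 or more and the 6 controls 16.7 or fewer. In a RefSeq table of assembly GRCz12tu the 2 genes lie close together on 1 chromosome, with 1 long non-coding RNA gene listed between them. Because the pair was picked for its opposite differences, and neither gene's groups overlapped at 10 dpf, the separation of the ratio at that age followed from the choice, and the ratio is a description only.

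The receptor gene ahr1a had the widest range over the 12 libraries, 5.67-fold. At 10 dpf its level was 0.570, 2.69 and 3.22 CPM in exposed libraries, from 18, 152 and 122 reads, and 2.86, 2.23 and 2.75 CPM in controls. Exposed replicate 1 had the lowest value of all 12 libraries, while the other 2 lay around the controls (log2 fold change -0.24, 95% interval -1.27 to 0.79, edgeR adjusted p = 0.777). Without that library the sign turned (0.18, edgeR adjusted p = 0.748).

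Of the inhibitors at 10 dpf, ahrra had 3.55, 3.13 and 4.22 CPM in exposed libraries and 4.58, 5.04 and 4.84 CPM in controls. The exposed libraries again lay below all controls, at 0.752 times their level, and the difference did not pass (log2 fold change -0.41, SE 0.17, edgeR adjusted p = 0.122, and 0.235 without exposed replicate 1). In ahrrb the order was the other way, with 0.919, 0.796 and 0.871 CPM in exposed libraries and 0.568, 0.661 and 0.393 CPM in controls. These levels rest on 13 to 45 reads per library (0.64, SE 0.36, edgeR adjusted p = 0.272). The level of tiparp was 15.4, 16.3 and 19.4 CPM in exposed libraries against 18.5, 10.04 and 11.2 CPM in controls. Control replicate 1 lay far above the other 2 controls, but within the range of the exposed libraries. At 7 dpf tiparp was at 15.8 to 17.9 CPM in exposed larvae and 15.7 to 18.6 CPM in controls. Control replicates 2 and 3 of 10 dpf thus had the lowest levels of the 12 libraries. Without control replicate 1 the difference passed (0.70, edgeR adjusted p = 0.00868, against 0.36 and 0.238 with all libraries), where 4.99% of all genes did.

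**Figure D3:**
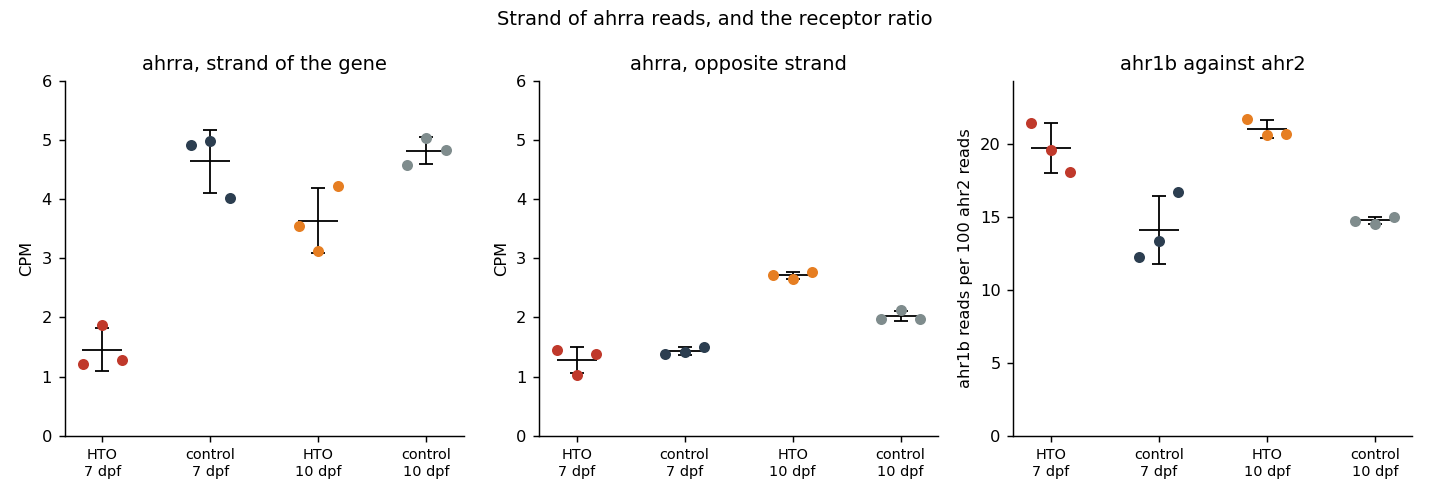
Left and middle, CPM (vertical axes) of reads on the strand of ahrra and on the opposite strand, and right, ahr1b reads per 100 ahr2 reads, in exposed (HTO) and control libraries at 7 and 10 dpf; dots are libraries, bars the mean with the SD of 3. On the opposite strand the exposed and control libraries overlap at 7 dpf and are apart at 10 dpf (2.65 to 2.77 against 1.97 to 2.13 CPM), and the ratio is 18.1 or more in all exposed and 16.7 or less in all control libraries.

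The locus of ahrra also gave reads on the opposite strand, which the counts used above leave out. They numbered 27 to 150 per library, where the other 8 genes had 0 to 9. At 7 dpf the opposite strand was at 1.44, 1.02 and 1.38 CPM in exposed libraries and at 1.38, 1.42 and 1.51 CPM in controls, so that the groups overlapped. The gene's own strand thus made up 45.7, 64.6 and 48.1% of the reads of both strands in exposed larvae, against 78.1, 77.8 and 72.8% in controls. Counted without strand, the log2 fold change of ahrra at 7 dpf was -1.15, and at 10 dpf it was -0.11 (edgeR adjusted p = 0.546). Reads of both strands added up to the unstranded count in 12 of 12 libraries. At 10 dpf, where 1.4% of the 4360 genes tested on the opposite strand passed, ahrra did not pass on it (log2 fold change 0.42, SE 0.17, edgeR adjusted p = 0.298). In the RefSeq table pigm is the next gene beside ahrra. Its level was 0.977 to 1.36 CPM in exposed larvae at 10 dpf and 1.09 to 1.16 CPM in controls.

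Among the CYP1 genes at 10 dpf, cyp1a had 61.6, 107 and 133 CPM in exposed libraries and 143, 149.8 and 137 CPM in controls. The exposed libraries lay below all controls and spread widely (log2 fold change -0.51, SE 0.22, edgeR adjusted p = 0.160). The lowest was exposed replicate 1. Without it the log2 fold change was -0.25 (edgeR adjusted p = 0.242). Without exposed replicate 3, the highest, it was -0.74 and passed (edgeR adjusted p = 0.0400), where 9.13% of all genes did. The 5 liver markers, summed, had the same order as cyp1a over the exposed libraries, at 192, 937 and 1365 CPM, against 1240, 1211 and 1232 CPM in controls. The 5 intestine markers did so too, at 341, 1023 and 1238 CPM in exposed larvae against 976, 1101 and 929 CPM in controls. This order was not particular to them: the 5 heart markers stood at 40.9, 60.2 and 68.5 CPM in exposed larvae against 71.0, 61.6 and 58.7 CPM in controls. At 7 dpf, where cyp1a was lower too, summed liver and intestine markers overlapped between the groups. Liver markers were at 1755 to 2181 CPM in exposed larvae and 1810 to 2176 CPM in controls, and intestine markers at 1090 to 1296 against 1136 to 1204 CPM. None of these markers was at 0 in any library, none passed the test at 10 dpf, and their part in the level of cyp1a was not tested.

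**Figure D4:**
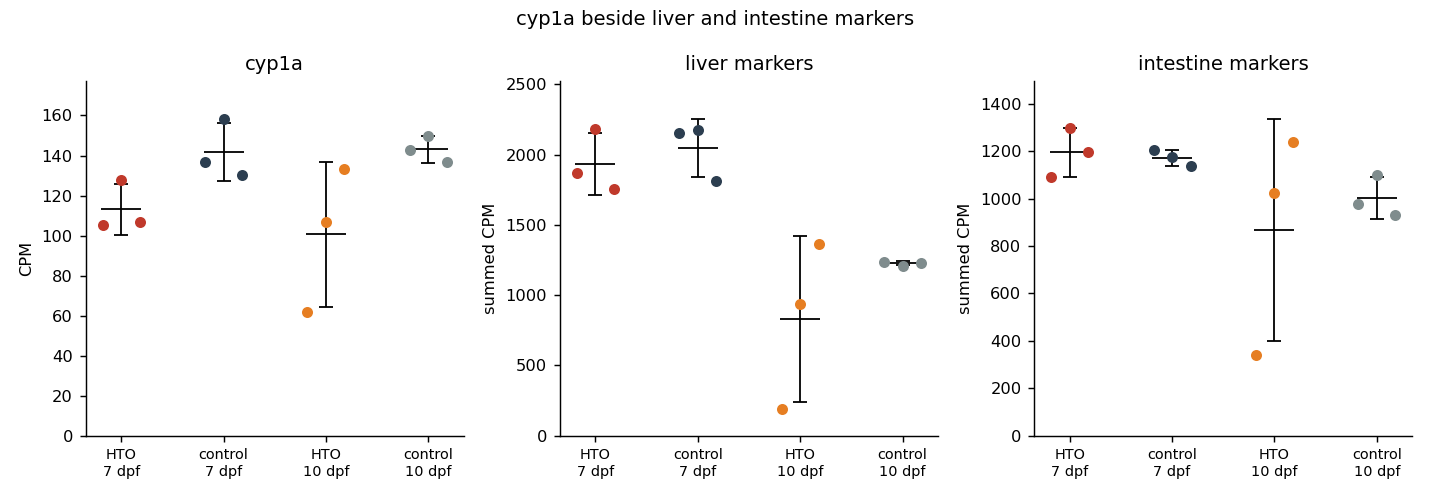
CPM of cyp1a (left) and summed CPM of 5 liver markers (middle) and of 5 intestine markers (right) on the vertical axes, in exposed (HTO) and control libraries at 7 and 10 dpf; dots are libraries in the order of replicate number, bars the mean with the SD of 3. At 10 dpf exposed replicate 1 is the lowest library in all 3 panels, at 61.6, 192 and 341 CPM.

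The gene cyp1c2, which was the more sharply separated CYP1 gene at 7 dpf, had 4.85, 4.41 and 5.20 CPM in exposed libraries at 10 dpf and 5.05, 5.08 and 5.20 CPM in controls. The groups overlapped (log2 fold change -0.09, 95% interval -0.30 to 0.13, edgeR adjusted p = 0.603). For cyp1b1, an enzyme of estrogen and retinoid metabolism as well as of ligand oxidation, there were 4, 6 and 4 reads in exposed libraries and 7, 14 and 7 in controls. Its exposed levels lay below all controls by CPM, at a depth where a change of this size could not be told from none (-0.91, SE 0.56, edgeR adjusted p = 0.312).

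At 10 dpf, then, 0 of the 9 genes passed edgeR's test after adjustment, where 11.8% of all genes did. With DESeq2 2 passed, where 14.6% of all genes did. An unadjusted edgeR p under 0.05 was found in 4 (ahrra, ahr1b, ahr2 and cyp1a), a count without a share over all genes beside it. Libraries of the groups were apart in 6 of 9, 2 with the exposed ones above and 4 with them below, against 33.8% of all genes without overlap. The median log2 fold change was -0.20 over the 9 genes and -0.00 over all genes tested, whose quartiles were -0.21 and 0.19. For ahrra, ahr2 and cyp1a, exposed libraries lay below the controls at both ages. This has no share over all genes beside it, and for ahrra the part at 7 dpf is the one that chose the set. For cyp1a the gap was narrow. The highest exposed and lowest control libraries were at 127.7 and 130.3 CPM at 7 dpf, and at 133.3 and 136.7 CPM at 10 dpf. Summed epidermis markers were at 3442 to 3766 CPM in exposed larvae and 2128 to 2272 CPM in controls at 10 dpf. Of the 5, 2 passed as higher in exposed larvae, and their part in these results was not tested.

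The difference between the exposure effects at 10 and at 7 dpf was tested next in the 8 genes other than ahrra. By edgeR's test 0 of them passed, where 0.269% of all genes did, and 0 with DESeq2, where 1.21% did. An unadjusted edgeR p under 0.05 was found in 1. That 1 gene was cyp1c2, with a log2 fold change of -0.09 at 10 dpf and -0.48 at 7 dpf (difference 0.39, SE 0.14, edgeR adjusted p = 0.321). The effect at 10 dpf minus that at 7 dpf was 0.03 for ahr2 (95% interval -0.16 to 0.23) and 0.05 for ahr1b (-0.24 to 0.35). For ahrra the difference was 1.24 (SE 0.24), which is not tested because the gene was chosen on the libraries at 7 dpf.

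Between 7 and 10 dpf, cyp1c2 fell in control larvae. It had 5.05, 5.08 and 5.20 CPM at 10 dpf against 7.91, 7.44 and 7.75 CPM at 7 dpf, a fall of 33.7% with no overlap (log2 fold change -0.59, SE 0.10, edgeR adjusted p = 0.000621). The call held whichever library was left out. In exposed larvae cyp1c2 was at 4.82 ± 0.40 CPM at 10 dpf, against 5.54 ± 0.21 CPM at 7 dpf (SD, n = 3 each), and did not pass (-0.20, SE 0.10, edgeR adjusted p = 0.174). The difference between these age changes is the same quantity as the difference between exposure effects given above and did not pass. Both age comparisons share their 7 dpf libraries with the comparison that chose the set.

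**Figure D5:**
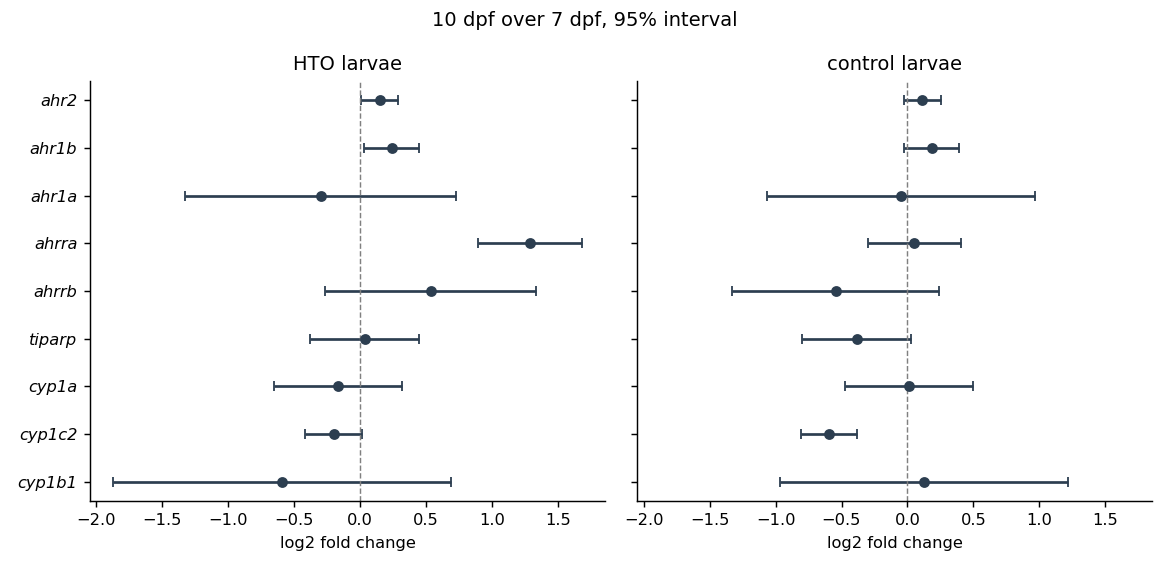
Log2 fold change of 10 dpf over 7 dpf (horizontal axis) for each of the 9 genes (vertical axis) in exposed (HTO) larvae on the left and in control larvae on the right, with 95% intervals from the fit of all 12 libraries. The intervals of ahrra run from 0.89 to 1.68 in exposed larvae and from -0.30 to 0.40 in controls, and that of cyp1c2 lies below 0 in controls. Those of ahrra are a description and no test, since the gene was chosen on the libraries of 7 dpf.

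In controls 1 of the 8 genes other than ahrra passed the age comparison, where 29.3% of all genes did. Libraries of the ages did not overlap in 2 of all 9, ahr2 and cyp1c2, against 46.1% of all genes. In exposed larvae 0 of the 8 passed, against 23.2% of all genes, with 2 at an unadjusted p under 0.05 (ahr1b and ahr2). With DESeq2, which gave an adjusted p for 7 of the 8, 0 passed, against 25.5% of all genes. There 5 of 9 did not overlap, against 39.6% of all genes, with ahrra, ahr1b and ahr2 above at 10 dpf and cyp1b1 and cyp1c2 below. Of these, ahrra was chosen on the comparison that holds the same exposed libraries of 7 dpf, so its separation followed in part from the choice. In exposed larvae ahr2 was at 160.5 ± 7.02 CPM at 10 dpf and 145 ± 3.74 CPM at 7 dpf, and in controls at 185 ± 5.21 CPM at 10 dpf and 171 ± 5.49 CPM at 7 dpf (SD, n = 3 each). The mean of exposed larvae at 10 dpf lay below that of controls at either age. As a description, ahrra stood at 3.64 ± 0.55 CPM at 10 dpf against 1.45 ± 0.36 CPM at 7 dpf in exposed larvae. In controls it stood at 4.82 ± 0.23 CPM against 4.64 ± 0.54 CPM (SD, n = 3 each). Reads on the strand opposite to ahrra were also higher at 10 dpf. They averaged 2.72 ± 0.06 CPM against 1.28 ± 0.23 CPM at 7 dpf in exposed larvae. In controls they averaged 2.02 ± 0.09 CPM against 1.44 ± 0.07 CPM (SD, n = 3 each). The higher level at 10 dpf in exposed larvae was thus not particular to the gene's own strand. In controls cyp1a was level, at 143 ± 6.57 CPM at 10 dpf and 142 ± 14.7 CPM at 7 dpf (log2 fold change 0.01, 95% interval -0.47 to 0.50).

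The wider pathway was followed in 42 further genes, among them chaperones and dimer partners, corepressors of AHRR, and cyp1d1. Other genes known to respond to receptor ligands, enzymes of tryptophan breakdown, and relatives with the same bHLH-PAS fold made up the rest. Symbols in capitals are written as the table of gene IDs gives them. Some were matched only by a synonym or a shortened symbol, so that a paralog can stand for the listed gene or beside it, as with the genes written SOX9. At 7 dpf 0 of the 42 passed by edgeR, where 0.516% of all genes did, and 0 with DESeq2, where 2.63% did. At shares this small, 0 of 42 cannot be told from the background. An unadjusted edgeR p under 0.05 was found in 4, a count without a share over all genes beside it. At 10 dpf 8 passed, 4 higher and 4 lower in exposed larvae, where 4.77% of all genes passed as higher and 7.02% as lower. Their median log2 fold change was -0.11.

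Of the 8 chaperones and partners, ARNT2 was higher in exposed larvae than in controls at 10 dpf. ARNT2 encodes a dimer partner of bHLH-PAS factors, while arnt encodes the partner that ahr2 is known to need for the response of zebrafish embryos to dioxin. ARNT2 was at 174 ± 12 CPM in exposed larvae and 135 ± 7.22 CPM in controls (SD, n = 3 each, log2 fold change 0.37, edgeR adjusted p = 0.0162). Without exposed replicate 1 its adjusted p was 0.0525. The level of arnt was 15.7 ± 2.13 CPM in exposed larvae and 16.2 ± 0.786 CPM in controls (SD, n = 3 each) and did not pass (-0.05, edgeR adjusted p = 0.804). Of 12 other genes known to respond to ligands, NQO1, a quinone reductase, was lower, at 47.3 ± 8.75 CPM in exposed larvae against 70.1 ± 9.60 CPM in controls (-0.56, edgeR adjusted p = 0.0179). NFE2L2, which encodes the antioxidant regulator Nrf2, was lower in exposed larvae too (-0.41, edgeR adjusted p = 0.0213, and 0.0774 without exposed replicate 1). The matrix protein gene CCN2 was higher in exposed larvae (0.34, edgeR adjusted p = 0.0180). The 6 cartilage markers, summed, were at 211 to 300.6 CPM in exposed larvae and 160 to 187 CPM in controls. Of these 6, 3 passed as higher in exposed larvae and none was at 0. Their part in the level of CCN2 was not tested. Of 7 enzymes of tryptophan breakdown, il4i1, an amino acid oxidase of immune cells, was lower in exposed larvae. It stood at 0.530 ± 0.229 CPM in exposed larvae, against 2.78 ± 1.18 CPM in controls (-2.36, edgeR adjusted p = 0.0482, and 0.139 without exposed replicate 1). At 7 dpf it stood at 0.640 ± 0.480 CPM in exposed larvae and 0.871 ± 0.834 CPM in controls (SD, n = 3 each). At 10 dpf the 14 macrophage markers, summed, stood at 76.3 to 108 CPM in exposed larvae and 145 to 165 CPM in controls. Of the 10 that passed the filter, 2 passed the test as lower in exposed larvae. None of the 14 was at 0 in all 12 libraries, and their part in the level of il4i1 was not tested.

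Among 10 genes with the bHLH-PAS fold, both genes written NPAS4, an activity-dependent neuronal factor, were higher in exposed larvae at 10 dpf. The log2 fold changes were 0.96 for ENSDARG00000055752 and 0.83 for ENSDARG00000087753 (edgeR adjusted p = 0.0174 and 0.0186). Lower in exposed larvae was 1 of the genes written CLOCK (-0.37 for ENSDARG00000011703, edgeR adjusted p = 0.0257). Summed neuron markers were at 1247 to 1458 CPM in exposed larvae and 1035 to 1156 CPM in controls, and 4 of 7 passed as higher in exposed larvae. Their part in the level of NPAS4 was not tested. Without exposed replicate 1 at 10 dpf 4 of the 42 genes passed in place of 8: NQO1, CCN2, the NPAS4 gene ENSDARG00000087753 and the CLOCK gene ENSDARG00000011703. Over all genes 6.53% passed without that library, in place of 11.8%. The NPAS4 gene ENSDARG00000055752 then had an edgeR adjusted p of 0.0570. Neither cyp1d1 nor any of the 4 corepressor and ADP-ribose genes passed at either age.

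With age 9 of the 42 genes passed in controls, 6 higher and 3 lower at 10 dpf, and 8 in exposed larvae, 5 higher and 3 lower. Over all genes 29.3% passed in controls and 23.2% in exposed larvae, so neither count is above the background. The chaperone gene HSP90AB1 rose in both (0.35 in exposed larvae and 0.44 in controls), as did foxq1b, a forkhead gene induced by dioxin in zebrafish (0.92 and 1.13). In controls PTGES3 (ENSDARG00000037284), npas2 and both CLOCK genes rose as well, while SOX9 (ENSDARG00000003293), CCN2 and HIF1A fell. In exposed larvae ARNT2, FOXQ1 and NPAS4 (ENSDARG00000055752) rose, and sult6b1 and hif1aa were among those that fell. The difference between the age changes of exposed larvae and controls, gene by gene, passed in 0 of the 42 genes by edgeR, where 0.269% of all genes did. With DESeq2 it passed in 3, where 1.21% of all genes did. An unadjusted edgeR p under 0.05 was found in 7. Without exposed replicate 1 of 10 dpf, FOXQ1 and foxq1b were among the genes that no longer passed in exposed larvae (edgeR adjusted p = 0.134 and 0.0812), while PTGES3, XDH, KMO, HIF1A and npas2 did.

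The genes whose profile over the 12 libraries was most like that of ahrra were ATF3 (ENSDARG00000007823), a stress-induced transcription factor, anpepla, the fast muscle myosin gene myhb and tnfb, a tumour necrosis factor gene. Likeness was the root mean square difference between centred log2 CPM profiles, which was 0.32 to 0.33 for these 4 among 16811 genes, against a standard deviation of 0.75 of the profile of ahrra itself. ATF3 had 54.5 CPM in exposed larvae and 108 CPM in controls at 7 dpf, and 99.8 CPM in exposed larvae and 109 CPM in controls at 10 dpf. Most like cyp1a were ptprh, ANPEP (ENSDARG00000103878), an aminopeptidase, GLT8D1 and P2RX4 (ENSDARG00000044752), with differences of 0.13 against a standard deviation of 0.36. ANPEP had 379 CPM in exposed larvae and 475 CPM in controls at 7 dpf, and 379.7 CPM in exposed larvae and 539 CPM in controls at 10 dpf. These genes share all 12 libraries with ahrra and cyp1a, and no test was made.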

How the data were processed

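Raw read counts per gene were used as deposited, 1 table per library for 12 libraries. Per the submitters' processing notes the aligner was STAR and the build GRCz11. Their versions and the gene annotation: not given in the sources used here. Per the labels' protocols, RNA was extracted with TRIzol without DNase I, and libraries were stranded, from mRNA, and read from both ends. Of the 3 count columns that STAR writes, the one for reads whose first mate maps to the strand opposite the gene was taken. The column for reads whose first mate maps to the strand of the gene held 2.24 to 2.55% of the reads of both stranded columns. The lines for reads not assigned to 1 gene, 31.6 to 34.5% of all reads, were left out. They hold unmapped reads, reads that map to several places, and reads on no gene or on more than 1. Reads that map to several places are not counted on genes.

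Genes were matched by symbol (28988 of 32057 IDs have one), and cyp1a through its RefSeq synonym, as the table writes CYP1A1. In the wider and tissue lists, some genes were matched through a synonym or without a final letter or number. Some of these matched several IDs, all of which were kept, such as mfap4.1 among the macrophage markers. Of 85 symbols in the wider and tissue lists 79 matched. Counts were filtered with filterByExpr (minimum count 10, total 15), scaled by TMM and tested in edgeR with a robust quasi-likelihood fit (1 mean per group, 8 residual degrees of freedom). Tests were two-sided and adjusted over all 23075 genes, with a threshold of 0.05. Counts at an unadjusted p under 0.05 are given without a share over all genes, so they cannot be set against a background. CPM used TMM-scaled library sizes, and log2 CPM a prior count of 2. Reads on the opposite strand were fitted in the same way with these library sizes.

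All 9 members were named; of the wider list, genes past the threshold in a tested comparison, except 1 that is not reported here; and the 4 genes nearest to ahrra and to cyp1a with a mean of at least 1 CPM and a symbol that is no clone name. Members and lists were chosen with earlier results of these data known. Nothing in the labels says that replicate numbers pair libraries. Alternatives were RLE and upper quartile scaling, no filter, a filter of 1 CPM in 3 libraries, unstranded counts, a block for replicate number, DESeq2, the compared groups alone and leaving out each library. The fit of the opposite strand at ahrra and the wider-list counts without exposed replicate 1 of 10 dpf were added after seeing the data. The fit was tested on simulated counts. Tools were edgeR 4.0.16 and DESeq2 1.42.0 in R 4.3.3, with limma 3.58.1 beneath edgeR, and matplotlib 3.10.9 for plots.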

Additional observations from a re-analysis of the deposited data

Results flagged for a closer look

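Reads on the strand opposite to ahrra, which the gene counts by strand leave out, were above the level of controls in exposed larvae at 10 dpf. They averaged 2.72 ± 0.06 CPM in exposed larvae and 2.02 ± 0.09 CPM in controls (SD, n = 3 each). These levels came from 86, 150 and 105 reads in exposed libraries and 101, 103 and 65 in controls. By CPM all 3 exposed libraries lay above all 3 controls. That separation was the condition for listing the result here, so it supports nothing further. On the strand of the gene, 33.8% of all genes had groups without overlap at 10 dpf. In a fit of the opposite strand over 4360 genes, 1.4% of which passed at 10 dpf, ahrra did not pass (log2 fold change 0.42, SE 0.17, edgeR adjusted p = 0.298). At 7 dpf the opposite strand stood at 1.28 ± 0.23 CPM in exposed larvae and 1.44 ± 0.07 CPM in controls (SD, n = 3 each).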

How the results depend on the processing

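Of 9 genes 0 passed at 10 dpf with all libraries. Under upper quartile scaling, a filter of 1 CPM in 3 libraries and a fit of the compared groups alone 1 passed. It was ahr1b each time (edgeR adjusted p = 0.0493, 0.04995 and 0.0499). With DESeq2 2 passed. Over all genes 12, 13.2, 9.22 and 14.6% passed in these settings, in the same order. Leaving out single libraries gave 0 to 1: ahr1b without control replicates 1 or 3 of 7 dpf (edgeR adjusted p = 0.0345 and 0.0263), cyp1a without exposed replicate 3 and tiparp without control replicate 1 of 10 dpf. Over all genes 12.9, 13.3, 9.13 and 4.99% passed at 10 dpf in these fits, in the same order. The age comparison in controls gave 1 to 2 of the 8 genes other than ahrra, with ahr1b added without control replicate 3 of 7 dpf (0.29) and tiparp without control replicate 1 of 10 dpf (-0.70). Over all genes 23.8 and 21.8% passed it in these fits. Among the 8 genes other than ahrra, the difference of effects and the age comparison in exposed larvae stayed at 0 in every setting run. Over all genes 0.0432 to 1.21% passed for the difference and 16.1 to 26.5% for age in exposed larvae. The median at 7 dpf ran from -0.33 to -0.13 over libraries left out, the last without exposed replicate 1. Over libraries left out, cyp1b1 at 7 dpf ran from -0.57 to 0.43 and cyp1a with age in exposed larvae from -0.41 to 0.075, and each sign turned at the upper end by more than 1 SE, without control replicate 2 of 7 dpf and without exposed replicate 1 of 10 dpf. By less than 1 SE, ahr1a turned at 10 dpf without exposed replicate 1 (0.18) and at 7 dpf, from a value near 0, without exposed replicates 1 or 2 or control replicate 3 (-0.13, -0.15 and -0.09); other values near 0 turned too, none of them past the threshold. The cause was not tested in any of these cases.

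Deviations of same-numbered libraries from their group means correlated between -0.2 and 0.22. Between controls of 10 and 7 dpf they were 0.22, 0.04 and 0.18, and each library matched its own number best. In the other pairs of groups most libraries matched another number best. With 3 libraries per group these values cannot show whether replicate numbers pair libraries. With the number as a block the counts of members were as without it (0 at 10 dpf, 0 for the change of effect, 1 for age in controls, 0 for age under exposure), and 2088 of all genes passed at 10 dpf in place of 2721. Depth limits cyp1b1 (4 to 14 reads) and ahrrb (13 to 49). With 3 libraries per group, p-values weigh a difference against the spread between replicate libraries. That spread was estimated over all 12 libraries and moderated across genes. Over the alternatives, calls among all genes ran from 12 to 831 at 7 dpf (119 with all libraries; fewest without control replicate 1, most without control replicate 3), from 1153 to 3357 at 10 dpf (2721; fewest without control replicate 1 of that age, most with DESeq2) and from 10 to 280 for the difference (62; fewest without exposed replicate 1 of 7 dpf, most with DESeq2).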
